A study of Homo sapiens with 12 samples.

Results

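The PEA3 group is the ETV1, ETV4 and ETV5 subfamily of the ETS transcription factors, and its 3 members were taken by gene symbol from the 27814 named genes of the count table. ETV4 and ETV5 had enough counts for the fit across all genes, and ETV1 did not and is described by its counts. Messenger RNA came from BT474, an established breast cancer cell line with HER2 amplification and hormone receptors, and was sequenced in bulk. The 12 libraries fall into 4 groups of 3: cells labelled BRD8 KO in 200 nM neratinib for 4 h, parental cells in the same neratinib treatment, KO-labelled cells in DMSO (the solvent), and parental cells in DMSO. BRD8 carries a bromodomain and belongs to the EP400-TIP60 complex, which acetylates and remodels chromatin, and neratinib irreversibly inhibits the ErbB receptor kinases, HER2 among them. All 4 groups carry the BT474 background. The labels do not say whether the KO cells are a clone or a pool, where BRD8 was edited, or whether replicates are separate cultures, so the p-values reflect only how these libraries vary, which may be technical.

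ETS factors share a DNA-binding domain that reads a core GGAA element. PEA3 group proteins bind that element as activators downstream of receptor tyrosine kinases: signalling through RAS and ERK raises transcription of their genes, and ERK also phosphorylates the proteins. Capicua (CIC), a repressor that ERK signalling removes from DNA, holds the PEA3 group genes down when the pathway is quiet. The ubiquitin ligase adaptor COP1 targets the proteins for degradation. In breast cancer ETV4 (also called PEA3 or E1AF) was first described in connection with HER2, and the group is known for roles in branching, migration and invasion.

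Each library held 32471198 to 44726160 counts on named genes. BRD8 mRNA, which would check the KO label if the edit lowered the transcript, was 156.1 ± 2.44 CPM in KO-labelled and 235.6 ± 5.23 CPM in parental cells in neratinib (mean ± SD, n = 3 each). In DMSO it was 67.4 ± 1.39 CPM in KO-labelled and 64.1 ± 0.706 CPM in parental cells, so it was not lower under the KO label there. CPM are counts scaled to a common library size. All 10 luminal and HER2-amplified markers were detected, with a summed level of 15420 to 18040 CPM over the 12 libraries. They moved in both directions. With neratinib 3 were called higher and 7 lower in KO-labelled cells, and 4 and 6 in parental cells. Between genotypes 3 were higher and 6 lower in KO-labelled cells in neratinib, and 5 and 5 in DMSO. The all-gene shares of these calls are given below. The summed level of 9 basal and mesenchymal markers was 125.6 to 130.6 CPM in KO-labelled neratinib, 96.6 to 99.7 in parental neratinib, 93.1 to 98.0 in KO-labelled DMSO and 80.6 to 86.6 CPM in parental DMSO libraries, most of it from COL1A1, and KRT14, SNAI2, COL1A2 and LUM had too few counts to test. That of 7 blood and endothelial markers was 36.8 to 41.6, 15.1 to 15.9, 33.9 to 34.7 and 12.3 to 12.4 CPM in the same order of groups. Nearly all of that sum was VWF, while PTPRC, CD3E, CD14 and PECAM1 had too few counts to test. These marker sums moved with both genotype and treatment, and their part in the results that follow was not tested.

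ETV4 and ETV5 were both lower after neratinib, in KO-labelled and in parental cells, and both fell by a smaller factor in the KO-labelled cells. The KO label itself went with higher ETV4 in neratinib and lower ETV4 in DMSO. ETV5 was higher in KO-labelled cells in neratinib, and in DMSO its genotypes differed by less than the spread between replicates. In a bulk sample, fewer cells carrying a transcript and less of it per cell cannot be told apart.

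ETV4 (ENSG00000175832.12) lies on the minus strand at chr17:43527844-43579620 (GENCODE 29, GRCh38), and its annotated exons cover 3607 bases over 11 transcripts. Its level was 5.30, 5.25 and 6.04 CPM in the KO-labelled neratinib libraries, from 179, 222 and 216 counts. In parental neratinib libraries it was 3.25, 3.29 and 3.20 CPM, from 149, 109 and 123 counts. In KO-labelled DMSO libraries it was 9.76, 10.1 and 10.1 CPM, and in parental DMSO libraries 14.7, 15.2 and 14.3 CPM. By group mean ETV4 was highest in parental DMSO, then KO-labelled DMSO, then KO-labelled neratinib, and lowest in parental neratinib. Each neighbouring pair in that order was tested and differed. Of all genes 71.6% were called between genotypes in DMSO and 71.6% in neratinib, and 77.2% with neratinib in KO-labelled cells. With neratinib ETV4 fell in KO-labelled cells to 55.4% of its DMSO level, a log2 fold change of -0.85 (SE 0.0724, 95% interval -0.999 to -0.706, adjusted p = 2.48e-14, edgeR quasi-likelihood test with Benjamini-Hochberg adjustment). In parental cells it fell to 22.0% of the DMSO level (log2 fold change -2.18, SE 0.0745, 95% interval -2.33 to -2.03, adjusted p = 1.69e-28). Of the 16208 genes tested, 1242 had a lower log2 fold change than ETV4 in KO-labelled cells and 130 in parental cells.

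Between genotypes ETV4 changed direction with treatment. In neratinib it was 1.70-fold higher in KO-labelled than in parental cells (log2 fold change 0.77, SE 0.092, 95% interval 0.58 to 0.95, adjusted p = 7.48e-10). In DMSO it was at 67.6% of the parental level in KO-labelled cells (log2 fold change -0.57, SE 0.059, 95% interval -0.68 to -0.45, adjusted p = 1.66e-11). The interaction, which subtracts the log2 neratinib response of parental cells from the one in KO-labelled cells, was 1.33 (SE 0.109, 95% interval 1.11 to 1.55, adjusted p = 8.14e-14). Because the interaction is built from the same 4 groups as the pairwise comparisons, it is not separate evidence for them.

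ETV5 (ENSG00000244405.7) lies on the minus strand at chr3:186046308-186110318, and its exons cover 5802 bases over 14 transcripts. Its level was 1.92, 1.89 and 1.62 CPM in KO-labelled neratinib libraries, from 65, 80 and 58 counts. In parental neratinib libraries it was 0.589, 0.514 and 0.857 CPM, from 27, 17 and 33 counts. Those are the thinnest counts behind any tested value of the group. In KO-labelled DMSO libraries it was 5.48, 6.21 and 5.98 CPM, and in parental DMSO libraries 5.69, 5.80 and 6.28 CPM. The DMSO libraries of the 2 genotypes overlapped. In neratinib the mean was 1.81 CPM in KO-labelled and 0.653 CPM in parental cells, both below the DMSO means of 5.89 and 5.92 CPM. With neratinib ETV5 fell in KO-labelled cells to 30.8% of its DMSO level (log2 fold change -1.70, SE 0.114, 95% interval -1.93 to -1.47, adjusted p = 1.03e-17), and 177 of the tested genes had a lower log2 fold change. In parental cells it fell to 11.1% (log2 fold change -3.17, SE 0.141, 95% interval -3.45 to -2.88, adjusted p = 4.12e-24), with 20 genes lower.

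In neratinib ETV5 was 2.76-fold higher in KO-labelled than in parental cells (log2 fold change 1.46, SE 0.187, 95% interval 1.09 to 1.84, adjusted p = 3.26e-09). In DMSO the log2 difference was -0.01 (SE 0.0873, 95% interval -0.18 to 0.17, adjusted p = 0.95), an interval that leaves room for a difference either way. The interaction was 1.47 (SE 0.207, 95% interval 1.05 to 1.89, adjusted p = 1e-07). Both genes thus fell by less in KO-labelled cells. In DMSO ETV4 passed the test between genotypes and ETV5 did not, and the difference between the 2 genes is given by the ratio of their counts below.

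**Figure D1:**
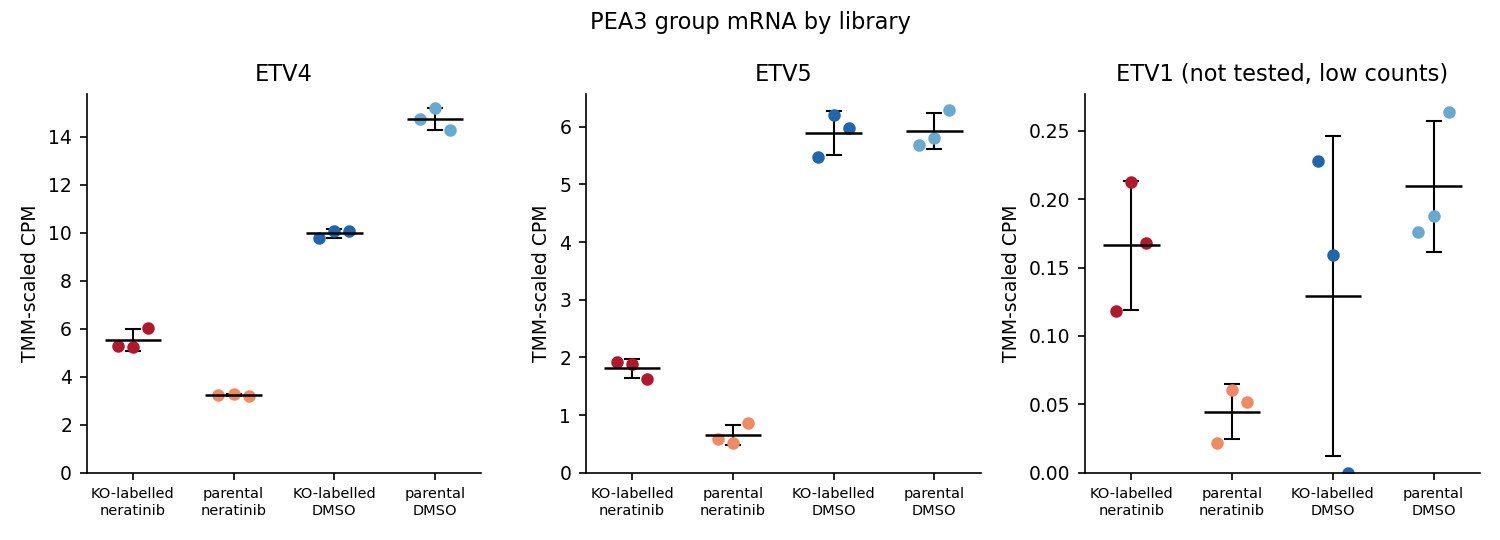
Levels of ETV4, ETV5 and ETV1 in each of the 12 libraries, in CPM scaled between libraries, with points for libraries and bars for the group mean and SD (n = 3). ETV4 averaged 5.53 in KO-labelled neratinib, 3.25 in parental neratinib, 9.96 in KO-labelled DMSO and 14.7 CPM in parental DMSO cells, whereas the DMSO groups of ETV5 overlap.

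The share of all genes called sets the scale for these calls, because the spread between replicates was small (a coefficient of variation of 1.86% beyond counting noise) and most tested genes passed. With neratinib in KO-labelled cells 38.4% of genes were called lower and 38.9% higher, and 5.3% were called and at least 2-fold lower, which held for ETV5 and not for ETV4. In parental cells 38.9% were called lower with neratinib and 41.8% higher, and 7.78% were called and at least 2-fold lower, as ETV4 and ETV5 both were. Between genotypes in neratinib 36.9% were called lower and 34.7% higher in KO-labelled cells, and 7.92% were called and at least 2-fold higher, as ETV5 was and ETV4 was not. In DMSO 35.6% of genes were called lower and 36% higher in KO-labelled cells. In the interaction 24.6% were called lower and 21.5% higher, and 1.48% were called higher with an interaction of at least 2-fold, as ETV4 and ETV5 both were. A call alone therefore separates the members little from other genes, and the sizes do so more.

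**Figure D2:**
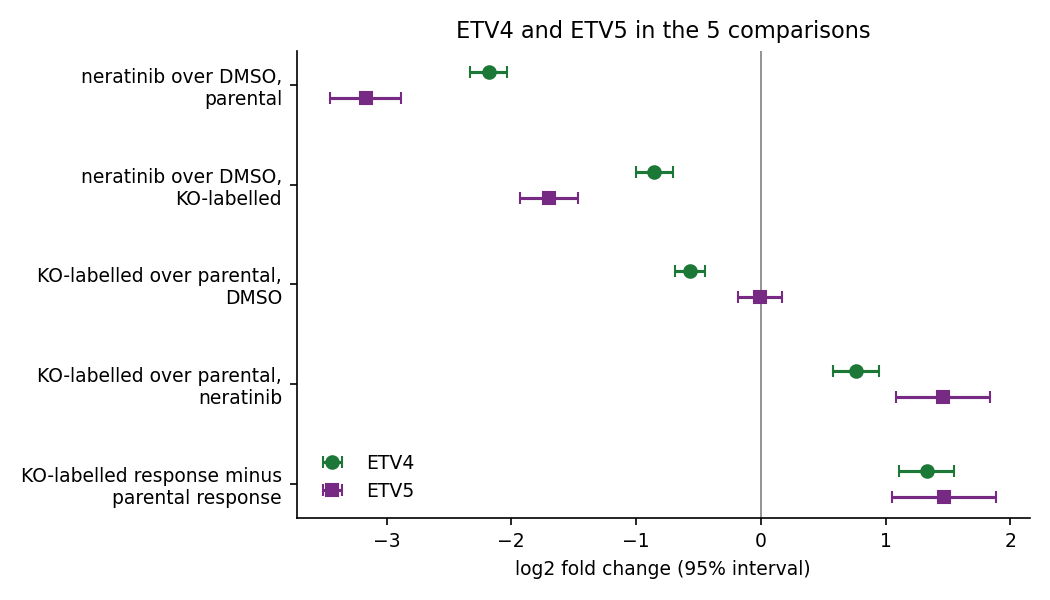
Log2 fold changes of ETV4 and ETV5 in the 4 pairwise comparisons and the interaction, with 95% intervals. In neratinib the difference of KO-labelled from parental cells was above 0 for both genes, whereas in DMSO that of ETV4 was -0.57 and that of ETV5 -0.01.

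The relation of the 2 tested members to each other also differed between groups. ETV5 had 0.363, 0.360 and 0.269 counts per ETV4 count in KO-labelled neratinib libraries and 0.181, 0.156 and 0.268 in parental neratinib libraries. In KO-labelled DMSO libraries the ratio was 0.561, 0.616 and 0.595, and in parental DMSO libraries 0.386, 0.382 and 0.440. Compared within a treatment or within a genotype, the groups did not overlap, although the nearest neratinib libraries differed only in the third decimal. The mean log2 ratio with neratinib minus that in DMSO was -0.85 in KO-labelled cells and -1.03 in parental cells. KO-labelled minus parental, it was 0.74 in neratinib and 0.56 in DMSO. Each of these 4 differences had an exact two-sided permutation p of 0.1, the smallest that 3 libraries against 3 allow, so none could pass.

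Per kilobase of annotated exon, a scale on which genes can be compared, ETV4 was the most abundant member in every group. It was at 1.53 ± 0.123 in KO-labelled neratinib, 0.900 ± 0.0136 in parental neratinib, 2.76 ± 0.0499 in KO-labelled DMSO and 4.09 ± 0.125 CPM per kilobase in parental DMSO cells (SD, n = 3). ETV5 was at 0.312 ± 0.0286, 0.113 ± 0.0311, 1.01 ± 0.0647 and 1.02 ± 0.0547 CPM per kilobase in the same order. ETV4 thereby held 82.2% of the level summed over the 3 members in KO-labelled neratinib cells, 88.5% in parental neratinib cells, 72.9% in KO-labelled DMSO cells and 79.7% in parental DMSO cells. The summed level was 1.86 ± 0.0942, 1.02 ± 0.0188, 3.79 ± 0.107 and 5.13 ± 0.0871 CPM per kilobase in that order. The exon length counts every annotated exon, and the transcripts in use in BT474 may be shorter.

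**Figure D3:**
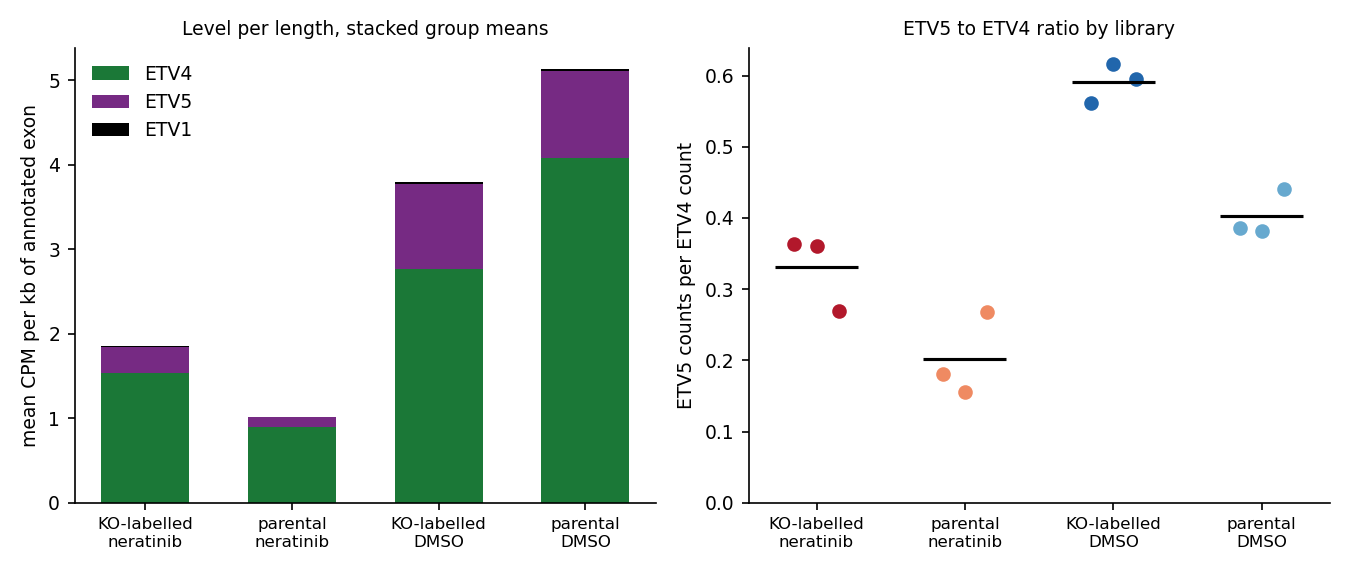
Left, mean levels of ETV4, ETV5 and ETV1 stacked by group, in CPM per kilobase of annotated exon. Right, ETV5 counts per ETV4 count in each of the 12 libraries, with a line at the group mean, which was 0.331 in KO-labelled neratinib, 0.202 in parental neratinib, 0.591 in KO-labelled DMSO and 0.402 in parental DMSO cells.

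ETV1 (ENSG00000006468.13, chr7:13891228-13991425, minus strand, 23 transcripts) was close to absent. It had 4, 9 and 6 counts in KO-labelled neratinib libraries and 1, 2 and 2 in parental neratinib libraries. It had 9, 7 and 0 counts in KO-labelled DMSO libraries and 7, 7 and 10 in parental DMSO libraries. The KO-labelled DMSO libraries spanned 0 to 9 counts and overlapped every other group, while the parental neratinib libraries lay below both remaining groups. Summed over libraries and corrected for library size, ETV1 in KO-labelled cells with neratinib was at 1.23 times its DMSO level (19 counts against 16, 95% counting interval 0.6 to 2.56). In parental cells the ratio was 0.204 (5 counts against 24, 0.0607 to 0.545). KO-labelled cells stood to parental cells at 3.99 in neratinib (19 counts against 5, 1.44 to 13.7) and at 0.66 in DMSO (16 counts against 24, 0.328 to 1.29). These intervals cover counting error only. The exact two-sided permutation p was 0.1 for the 2 ratios whose intervals leave out equality, the smallest the design allows, and 0.8 and 0.4 for the others. The ratio of KO-labelled cells with neratinib to DMSO was 0.885 without KO-labelled DMSO replicate 3 and 1.86 without replicate 1. That of KO-labelled to parental cells in DMSO was 0.437 without KO-labelled DMSO replicate 1 and 0.918 without replicate 3.

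Capicua reads an octamer near TGAATGAA, and the promoters of genes it represses often hold it. The forms TGAATGAA, TGAATGGA, TCAATGAA and TCAATGGA were searched on both strands of the RefSeq promoter windows of GRCh38.p14, each from 250 bases before to 50 bases after a start. Of all 35116 windows, 3.77% held at least 1 of them. No window of ETV4 or ETV5 was among these windows, so both genes were not searched here. Of ETV1's 6 windows 1 held an octamer, and DUSP6, the ERK phosphatase gene with the largest interaction among the genes listed below, held 2 in its window. They are shown because they carry the letters that the known repressor of the group reads, with the octamers in capitals and each window in the direction of its gene (minus strand for both).
ETV1, chr7:13991376-13991675: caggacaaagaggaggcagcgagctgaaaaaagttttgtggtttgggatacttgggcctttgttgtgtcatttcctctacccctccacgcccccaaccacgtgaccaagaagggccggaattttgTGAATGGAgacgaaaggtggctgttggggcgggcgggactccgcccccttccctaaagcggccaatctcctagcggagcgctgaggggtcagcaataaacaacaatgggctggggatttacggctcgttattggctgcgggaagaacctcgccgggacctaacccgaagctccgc
DUSP6, chr12:89352452-89352751: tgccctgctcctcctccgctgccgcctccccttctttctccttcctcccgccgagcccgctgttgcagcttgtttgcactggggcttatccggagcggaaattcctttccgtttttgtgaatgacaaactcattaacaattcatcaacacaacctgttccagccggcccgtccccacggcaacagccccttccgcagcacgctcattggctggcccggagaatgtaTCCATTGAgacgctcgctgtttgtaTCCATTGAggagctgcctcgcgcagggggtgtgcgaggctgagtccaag
The ETV1 octamer begins 125 bases before the start. Both DUSP6 octamers are TCAATGGA read from the opposite strand, and print here as TCCATTGA. Among the 20 genes of the members, the ERK output list and the capicua list, 13 had a window in the table and 4 of those held an octamer (DUSP6, EPHA2, ETV1 and MAFF), against 1262 of all 27305 genes with a window (4.62%). The listed genes were partly chosen as reported targets of capicua, and genes differ in their number of windows, so these counts are not a test. A match is a description of these letters only.

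The 3 genes lie on different chromosomes, so their neighbours were read for each. With neratinib in parental cells the 6 nearest tested genes of ETV4 (3 on each side) ranged from -1.29 on the log2 scale for DUSP3, a dual-specificity phosphatase gene, to 1.37 for NBR1, an autophagy receptor gene. All 6 were called, 5 of them lower, and all were above ETV4. Over all genes 80.7% were called in this comparison and 38.9% were called lower. The call of TMEM106A was lost without parental DMSO replicate 3 (adjusted p = 0.0548). Between genotypes TMEM106A differed most among these neighbours, with a log2 fold change of -2.26 in neratinib and -4.52 in DMSO, from levels of at most 1.07 CPM in any group. MPP3, a scaffold protein gene 221.2 kb away, was higher in KO-labelled cells in neratinib (log2 fold change 0.25, adjusted p = 0.0107) and lower in DMSO (-0.57). The means of MPP3 ran in the group order of ETV4. Its response to neratinib in KO-labelled cells was not called (log2 fold change -0.05, adjusted p = 0.586), whereas that of ETV4 was. The call of MPP3 between genotypes in neratinib was lost without parental neratinib replicate 1 (adjusted p = 0.0533) and without KO-labelled neratinib replicate 3 (adjusted p = 0.0702). The 6 neighbours of ETV5 ranged from -0.51 (TRA2B, a splicing regulator) to 0.80 (CRYGS, a crystallin) with neratinib in parental cells, far from the ETV5 value of -3.17. Between genotypes IGF2BP2, an RNA-binding protein gene averaging at most 0.273 CPM in any group, was higher in KO-labelled cells in neratinib (log2 fold change 2.31, against 1.46 for ETV5) and in DMSO (2.58, against -0.01). The nearest tested neighbour of ETV1 was 1200.3 kb away.

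ETV4 lies inside the span of DHX8, a splicing helicase gene on the opposite strand. The kit does not mark strand, so reads from their overlap cannot be assigned by strand. Of the 3775 possible 50-base reads of ETV4 exons, 0.609% also occur in another gene's exons. DHX8 averaged 73.2, 66.1, 70.9 and 66.7 CPM in KO-labelled neratinib, parental neratinib, KO-labelled DMSO and parental DMSO cells. Its log2 response to neratinib in parental cells was -0.01 (adjusted p = 0.691). Shared reads were counted among annotated transcripts only, so unspliced DHX8 reads over ETV4 exons are not covered. The part of DHX8 reads in the ETV4 counts was not tested. ETV5 shares 1.96% of its possible reads with DGKG, which had 39 counts over all 12 libraries. No 50-base read was shared between members of the group.

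The genes whose levels over the 4 groups ran most like a member's were found by the root mean square difference in centred group-mean log2 CPM, over 12852 candidates, as a description over 4 groups and 12 libraries. For ETV4 they were CDCA7, a DNA methylation-linked zinc finger gene (0.048), UHRF1, which maintains DNA methylation (0.096), FLT4, a VEGF receptor (0.125), the chemokine CXCL14 (0.128) and MCM10, a replication initiation factor (0.146). CDCA7 was at 21.4 CPM in KO-labelled neratinib, 11.9 in parental neratinib, 37.2 in KO-labelled DMSO and 52.1 CPM in parental DMSO cells, the same order as ETV4. For ETV5 they were CORO1A, an actin-binding coronin (0.128), the phosphatase DUSP4 (0.148), the mucin MUC5AC (0.165), the receptor kinase EPHA2 (0.181) and CBARP, a calcium channel regulator (0.216). CORO1A was at 3.31, 1.43, 13.7 and 12.2 CPM in the same order of groups. FLT4 averaged at most 1.13 CPM in any group. Its fall with neratinib in KO-labelled cells was not called with DESeq2 (adjusted p = 0.106). The genotype differences of CXCL14 and CORO1A in DMSO were not called with DESeq2 (adjusted p = 0.0928 and 0.0963). Some fits that left out a library also lost them. ETV4 and ETV5 differed from each other by 0.54, so that 1374 genes were closer to ETV4 than ETV5 was, and 90 were closer to ETV5 than ETV4 was.

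ERK transcriptional output genes are the ones that, like the PEA3 group, rise and fall with ERK signalling. Of 14 listed, 13 were tested and FOSL1 had too few counts. With neratinib in KO-labelled cells 12 fell, 9 of them at least 2-fold, and 1 rose (median log2 fold change -1.31, against 0.02 over all genes). The one that rose was SPRY2, a Sprouty inhibitor of receptor signalling, at 2.42 CPM in KO-labelled neratinib and 1.56 CPM in KO-labelled DMSO cells. In parental cells 13 of 13 fell with neratinib, 9 at least 2-fold (median -2.07 against 0.04). Over all genes 38.4% fell and 38.9% rose with neratinib in KO-labelled cells, and 5.3% fell at least 2-fold. In parental cells these shares were 38.9%, 41.8% and 7.78%. DUSP6, a phosphatase that removes ERK's activating phosphates, was at 2.10 CPM in parental neratinib and 36.6 CPM in parental DMSO cells, and SPRY4, another Sprouty gene, at 0.419 and 14.7 CPM. Between genotypes in neratinib 8 were higher and 4 lower in KO-labelled cells, and 4 were at least 2-fold higher (median 0.48 against -0.02). Of all genes 34.7% were higher and 36.9% lower in that comparison, and 7.92% were at least 2-fold higher. DUSP6 was at 12.5 CPM there in KO-labelled and 2.10 CPM in parental cells, and EPHA2, an Eph receptor, at 3.24 and 1.10 CPM. CCND1, which encodes cyclin D1, was lower instead, at 25.3 CPM in KO-labelled and 29.5 CPM in parental cells.

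In the interaction 8 of the 13 ERK output genes were higher and 1 lower (median 0.47 against -0.02), and 4 were at least 2-fold higher. DUSP6 had the largest, 2.95 on the log2 scale (SE 0.098, adjusted p = 4.41e-27), followed by SPRY4 at 2.07, EPHA2 at 1.79 and SPRY2 at 1.30. ETV4 at 1.33 and ETV5 at 1.47 lay between EPHA2 and SPRY2. The lower one was DUSP5, a nuclear ERK phosphatase, at -0.46. In DMSO 3 were higher, 7 lower and 3 not called in KO-labelled cells (median -0.20 against 0.00). Of all genes 21.5% were higher and 24.6% lower in the interaction, and 1.48% were at least 2-fold higher. In DMSO 36% of all genes were higher and 35.6% lower in KO-labelled cells. SPRY4 was at 7.56 CPM in KO-labelled and 14.7 CPM in parental cells, and CCND1 at 235 and 395 CPM, both lower as ETV4 was. DUSP4 was at 418 and 368 CPM and PHLDA1 at 12.1 and 7.81 CPM, both higher.

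The list of genes reported as repressed by capicua holds 9 genes, all tested, and shares 6 with the ERK output list (42.9% of that list and 66.7% of this one), so the 2 are not separate evidence. Of the 9, 5 fell, 3 rose and 1 was not called with neratinib in KO-labelled cells (median -1.13), while 7 fell and 2 rose in parental cells (median -2.55). Of those that rose in KO-labelled cells, SHC3 (adjusted p = 0.0488) was not called with DESeq2 (0.14), without the low-count filter (0.17), with a replicate block (0.0547) or in most fits that left out a library. In neratinib 7 were higher and 2 not called in KO-labelled cells (median 0.71), and in the interaction 6 were higher, 1 lower and 2 not called (median 0.98). In DMSO 3 were higher, 5 lower and 1 not called in KO-labelled cells (median -0.33). Over all genes 38.4% fell and 38.9% rose with neratinib in KO-labelled cells, and 38.9% and 41.8% in parental cells. In neratinib 36.9% of all genes were lower and 34.7% higher in KO-labelled cells, and in DMSO 35.6% and 36%. The interaction had 24.6% lower and 21.5% higher. MAFF, a small MAF transcription factor, went the other way from the PEA3 group with treatment, at 7.94 CPM in KO-labelled neratinib, 8.20 in parental neratinib, 1.68 in KO-labelled DMSO and 3.03 CPM in parental DMSO cells.

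**Figure D4:**
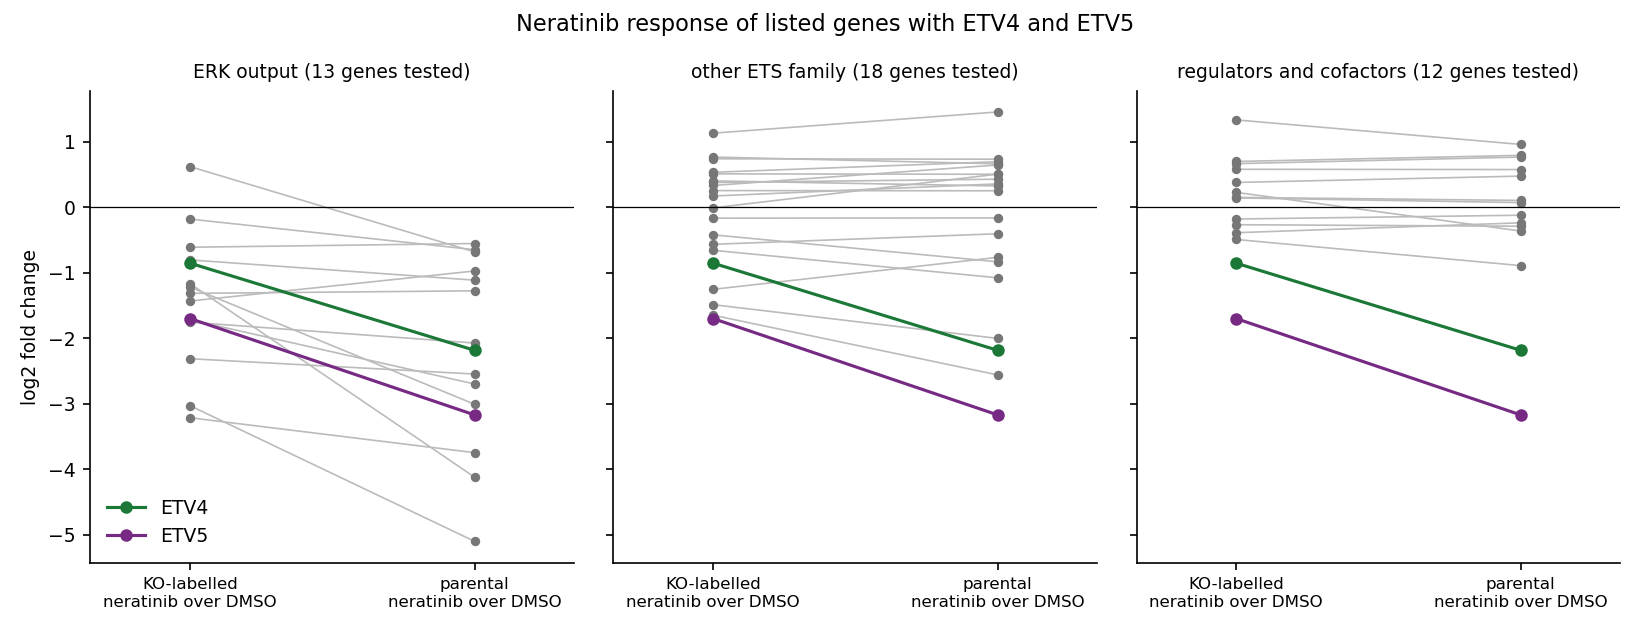
Log2 fold change with neratinib over DMSO in KO-labelled cells (left of each panel) and parental cells (right), with a line for each tested gene of the ERK output, other ETS family and regulator lists, and ETV4 and ETV5 drawn in each panel. The ERK output genes had a median of -1.31 in KO-labelled and -2.07 in parental cells, and the other ETS family genes 0.21 and 0.34.

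The regulators of the group moved in both directions, as the tested genes did in general. Over all genes 38.4% fell and 38.9% rose with neratinib in KO-labelled cells, and 38.9% and 41.8% in parental cells. In neratinib 36.9% of all genes were lower and 34.7% higher in KO-labelled than in parental cells, and in DMSO 35.6% and 36%. The interaction had 24.6% lower and 21.5% higher. All 12 genes of the list of regulators and cofactors of PEA3 group proteins were tested. With neratinib 8 rose and 4 fell in KO-labelled cells (median 0.19), and 7 rose and 5 fell in parental cells (median 0.09). Between genotypes 5 were higher, 5 lower and 2 not called in KO-labelled cells in neratinib (median 0.01), and 6, 5 and 1 in DMSO (median 0.08). In the interaction 3 were higher, 3 lower and 6 not called (median 0.01). Of the lower ones, ATXN1L and CREBBP were not called with DESeq2 (adjusted p = 0.0688 and 0.136) or without parental DMSO replicate 3 (0.1 and 0.166), and COP1 was not called without parental neratinib replicate 1 (0.0778). CIC mRNA, the repressor itself, was at 106 CPM in KO-labelled neratinib, 86.4 in parental neratinib, 95.7 in KO-labelled DMSO and 82.1 CPM in parental DMSO cells, so it was higher in KO-labelled cells under both treatments. Its small rise with neratinib in parental cells (log2 fold change 0.07) was not called without a low-count filter (adjusted p = 0.197) or without parental DMSO replicate 3 (adjusted p = 0.24), nor in several other alternatives. ATXN1, which encodes a capicua partner, was at 29.9, 33.7, 25.5 and 43.2 CPM in the same order of groups, with an interaction of 0.59. COP1 was at 49.0, 49.9, 64.2 and 58.8 CPM, and fell with neratinib in both genotypes. TRIB1, which encodes a pseudokinase that hands substrates to COP1, was at 233, 133, 92.2 and 68.6 CPM and rose with neratinib in both. MED25, the mediator subunit that PEA3 group activation domains contact, was at 67.6, 77.5, 41.6 and 44.7 CPM and also rose in both.

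Of 26 other ETS family genes 18 were tested, and ETS1, ETV7, FLI1, ERG, FEV, SPI1, SPIB and SPIC had too few counts, FEV with 0. With neratinib 10 rose, 6 fell and 2 were not called in KO-labelled cells (median 0.21), and 10, 7 and 1 in parental cells (median 0.34). Between genotypes 8 were higher, 5 lower and 5 not called in KO-labelled cells in neratinib (median 0.06), and 11, 5 and 2 in DMSO (median 0.15). In the interaction 2 were higher, 6 lower and 10 not called (median 0.00). Some of these calls were lost in alternatives. With DESeq2, GABPA was not called between genotypes in neratinib (adjusted p = 0.129), nor ELK4 in DMSO (0.117). ERF was not called in the interaction with DESeq2 (0.0627). Other fits also lost these. ETV6 lost its call with neratinib in parental cells under library totals alone (0.0905). ETV2 lost its call between genotypes in neratinib without parental neratinib replicate 3 (0.0674). Over all genes 38.9% rose and 38.4% fell with neratinib in KO-labelled cells, and 41.8% and 38.9% in parental cells. The all-gene shares of the other comparisons are those given for the regulators. ELK3, a ternary complex factor that partners serum response factor, was at 0.513, 0.548, 1.60 and 3.27 CPM in KO-labelled neratinib, parental neratinib, KO-labelled DMSO and parental DMSO cells. Its interaction of 0.91 (adjusted p = 0.0128) was lost without KO-labelled neratinib replicate 1 (adjusted p = 0.102). ETS2 was the other one higher in the interaction, at 0.42, a call lost in 3 of the fits that leave out a library, with adjusted p of 0.0613 without KO-labelled DMSO replicate 1, 0.0577 without parental neratinib replicate 2 and 0.0596 without KO-labelled neratinib replicate 2. At least 2-fold, 3 of the 18 tested ETS family genes fell and 1 rose with neratinib in each genotype. Of all genes 5.3% fell that far in KO-labelled and 7.78% in parental cells, and 9.42% and 13% rose. ELF4 also fell in both genotypes, at 0.334, 0.911, 0.967 and 3.66 CPM in the same order of groups. Its log2 fold change was -1.49 in KO-labelled and -2.00 in parental cells. ELF5, a mammary luminal progenitor factor, ran opposite to the PEA3 group with neratinib, at 165, 124, 75.4 and 45.1 CPM. SPDEF, a luminal ETS factor, was far more abundant than the PEA3 group in counts, at 226, 368, 538 and 626 CPM, and fell with neratinib in both genotypes.

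Of 15 genes reported as targets of PEA3 group factors, 7 were tested. MMP1, MMP2, MMP7, MMP9, PTGS2, ICAM1, SPP1 and MUC4 had too few counts, MMP7 with 0, so most of the matrix metalloproteinases for which the group is known gave no value. With neratinib 2 rose, 4 fell and 1 was not called in KO-labelled cells (median -0.34), and 3 rose and 4 fell in parental cells (median -0.09). Between genotypes 3 were higher and 4 lower in KO-labelled cells in neratinib (median -0.15), and 4 were higher and 3 not called in DMSO (median 0.27). In the interaction 1 was higher, 2 lower and 4 not called (median -0.14). Some of these calls were lost in alternatives. The call of MYB with neratinib in parental cells was lost with library totals alone (adjusted p = 0.834). Between genotypes in neratinib, CCND3 was not called without parental neratinib replicate 1 (0.128), nor MMP14 without KO-labelled neratinib replicate 2 (0.0538). BAX was not called in the interaction with DESeq2 (0.132). Over all genes 38.9% rose and 38.4% fell with neratinib in KO-labelled cells, and 41.8% and 38.9% in parental cells. The all-gene shares of the other comparisons are those given for the regulators. CXCR4, a chemokine receptor, was at 15.5 CPM in KO-labelled neratinib, 8.02 in parental neratinib, 24.7 in KO-labelled DMSO and 16.1 CPM in parental DMSO cells, with an interaction of 0.35 (adjusted p = 0.0011). VIM, the mesenchymal filament vimentin, rose with neratinib in both genotypes, at 71.7, 44.9, 34.6 and 21.8 CPM in the same order. MYB, a luminal transcription factor, was at 21.6, 31.0, 39.7 and 33.0 CPM, with an interaction of -0.78 (adjusted p = 1.85e-16).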

How the data were processed

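The authors deposited a single table of raw read counts per gene and library. Per the submitters' processing notes, FastQC 0.11.7, STAR 2.7.9 and edgeR 3.40.2 were used with GRCh38 (hg38). Which program counted the reads, on which annotation and with which strand setting is not given in the sources used here. Per the labels' protocols, the TruSeq RNA v2 kit was used, a polyadenylated-RNA kit that does not mark strand, and libraries were read as single 50-base reads. Of 28395 lines, 581 without a symbol (0.0877% to 0.124% of counts) were left out.

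Counts were filtered with filterByExpr (16208 genes kept), scaled with TMM (trimmed mean of M values), and fitted over all 12 libraries with 4 group means and 8 residual degrees of freedom, using edgeR 4.0.16 in R 4.3.3. Adjusted p-values with no other test named come from edgeR's quasi-likelihood test, adjusted by Benjamini-Hochberg across the 16208 genes and called below 0.05. "Rose", "fell", "higher" and "lower" in counts of list genes mean called. Levels are TMM-scaled CPM, and errors are SD over 3 libraries. Replicates had Spearman correlations of 0.9983 to 0.9987, and each pair differed by more than sampling noise (chi-square per degree of freedom 1.37 to 3.57), so all libraries were kept. ETV1 failed the filter, so summed counts with exact conditional 95% intervals are given. The model was tested on simulated counts.

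The 3 members and the gene lists were chosen with earlier results of these data known, so the lists are described by counts and medians and carry no test of their own. The naming rule took the 3 members, BRD8, up to 4 called genes of each list with the largest changes and list genes whose role is described, the 5 genes closest to each tested member among those averaging at least 1 CPM in a group, and the 3 tested protein-coding neighbours on each side. MPP3, TMEM106A and IGF2BP2 were singled out among the neighbours after their values were seen. Positions are from GENCODE 29 and promoter windows from RefSeq (GRCh38.p14). Alternatives were DESeq2 1.42.0, other scalings, no filter, fits of only the groups compared, a replicate block and leaving out each library. 1 gene of the blood and endothelial marker list is not reported here and was left out of its sum.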

Additional observations from a re-analysis of the deposited data

Results flagged for a closer look

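The following results stood out because the neratinib response differed between KO-labelled and parental cells, by a test of the difference itself (edgeR quasi-likelihood test, adjusted over all genes, 21.5% of which were higher and 24.6% lower). Values are the KO-labelled log2 response minus the parental one. Both tested members were among them, ETV4 at 1.33 and ETV5 at 1.47. In neratinib both genes were also higher in KO-labelled than in parental cells, as 34.7% of all genes were. That is the genotype difference there and not the interaction. Among other ETS family genes, ELK3 differed by 0.91 (adjusted p = 0.0128), ETS2 by 0.42 (0.0208), ELF5 by -0.32 (3.32e-10) and SPDEF by -0.49 (2.52e-19). The ELK3 call was lost without KO-labelled neratinib replicate 1 (0.102). That of ETS2 was lost without KO-labelled DMSO replicate 1 (0.0613), parental neratinib replicate 2 (0.0577) or KO-labelled neratinib replicate 2 (0.0596).

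Among ERK output genes, DUSP6 differed by 2.95 (adjusted p = 4.41e-27), SPRY4 by 2.07 (1.2e-09), EPHA2 by 1.79 (7.71e-12), SPRY2 by 1.30 (5.17e-06) and DUSP4 by 0.98 (4.45e-28). Among regulators, ATXN1 differed by 0.59 (6.67e-13), TRIB2 by 0.40 (0.00535), TRIB1 by 0.37 (3.32e-13) and COP1 by -0.15 (0.0048), the last not called without parental neratinib replicate 1 (0.0778). Among reported targets, CXCR4 differed by 0.35 (0.0011), MYB by -0.78 (1.85e-16) and BAX, an apoptosis effector, by -0.15 (0.0227). The BAX call was lost with DESeq2 (0.132), with DESeq2's size factors (0.0551) and without parental DMSO replicate 3 (0.101), KO-labelled DMSO replicate 1 (0.0502), parental neratinib replicate 1 (0.102) or KO-labelled neratinib replicate 2 (0.0607).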

How the results depend on the processing

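Across 18 alternatives, of which the fit of only the groups compared gives no interaction, ETV4 kept its direction and its call in each comparison run, and ETV5 in all but the genotype comparison in DMSO, where it was not called in any (adjusted p 0.653 to 0.975). There its log2 fold change of -0.01 was 0.0056 with library totals alone and ranged from -0.0542 to 0.0325 when each library was left out; the cause was not tested. With each library left out, the interaction ranged from 1.26 to 1.37 for ETV4 and from 1.351 to 1.72 for ETV5, and in the other settings from 1.306 to 1.354 and from 1.446 to 1.498. Library totals alone moved the median log2 fold change of all genes with neratinib in parental cells to 0.118, against 0.039 with TMM. Counts of genes called stayed within 1.5 times. Other values were followed for BRD8, for named or listed genes called in the main fit, and for the ETV1 and ETV5-to-ETV4 ratios. Of these, 4958 were counted as unchanged and 113 were no longer called. The ratios have no threshold, and listed genes not called in the main fit were not checked for gaining a call. Replicate numbers did not pair the samples (correlations of same-numbered deviations -0.137 to 0.081 over 10321 genes). With the replicate block, the interaction was 1.33 for ETV4 and 1.46 for ETV5, 7349 genes were called in it, and no call of a member changed. ETV1 could not be fitted with the low-count filter. Without it, its log2 fold change with neratinib was 0.26 (adjusted p = 0.743) in KO-labelled and -2.24 (0.0025) in parental cells, and between genotypes it was 1.90 (0.0196) in neratinib and -0.60 (0.393) in DMSO, with an interaction of 2.50 (0.0219). Its 5 to 24 counts a group limit these values.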
